A study of Homo sapiens with 8 samples.

Results

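The AP-1 and immediate early genes described here are 10 genes chosen by name: FOS, FOSL1, FOSL2, JUN, JUNB, JUND, ATF3, EGR1, IER2 and IER3. Of these 10, 9 had a row among the 14526 genes of the deposited expression table, and FOSL1, a FOS paralogue, had none. RNA was sequenced from 4 control replicates, grown without sodium benzoate (SB), and from 4 replicates given SB, a benzoate salt used as a food preservative, at 10 mM for 24 h. All 8 samples are labelled HepG2, a line established from a human liver carcinoma, and were grown in the same serum-containing medium. Values are RPKM, in which the reads of a gene are divided by its length and by the library size, and the recovered reads per library numbered 36990021 to 44878340.

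AP-1 is a family of leucine-zipper dimers that bind DNA at the TPA response element (TRE) and the related cAMP response element (CRE). FOS proteins bind DNA only with a partner, usually a JUN protein, whereas JUN proteins also pair with one another and with ATF proteins. Immediate early genes are transcribed within minutes of a growth factor or stress signal from factors already present in the cell, and many of their mRNAs are short-lived. In liver these genes are known for a rapid rise after partial hepatectomy. The samples were taken at a single time, 24 h, and cover no earlier response.

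The labelled cell line was checked first. Of 20 genes characteristic of hepatocytes, 16 had no row in the table, among them the albumin gene ALB, the fetal liver marker AFP, the apolipoprotein genes APOA1 and APOB, and the liver factor HNF4A. Of those with a row, FOXA3 was the most abundant, at 2.06 ± 0.193 RPKM (SD, n = 4) in control and 4.16 ± 0.198 RPKM (SD, n = 4) in SB-treated cells. FOXA1 was at 0.963 ± 0.116 and TF at 0.192 ± 0.0188 RPKM (SD, n = 4) in control. The summed level of these 3 genes was 3.47, 2.961, 3.48 and 2.961 RPKM in control replicates 1 to 4 and 5.60, 6.01, 6.11 and 5.72 RPKM in SB-treated replicates 1 to 4. The 3 genes were higher in SB-treated cells with limma adjusted p-values between 2.10e-06 and 0.00344. The part of this in the results was not tested. The defining markers of the labelled line were therefore not seen, and the samples are called control and SB-treated cells below.

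Control replicate 1 stood apart from the other controls. Against each of them, the difference in reads per gene gave a chi-square of 33.4 to 38.4 per degree of freedom, where 1 is sampling noise, while the pairs among control replicates 2 to 4 gave 1.69 to 3.47. GC content accounted for 53.3% of the variance of its difference from the mean of the other controls. For those 3 it was 23.7% to 34.9%, but the mean they were set against includes control replicate 1. The 9 genes, their order, family shares and ratios, the lists and the other genes named were therefore also examined without it, and that value is given where a call or direction changed or a count or median moved by over 1.5 times.

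SB-treated cells had more JUN, JUND, FOSL2, ATF3, EGR1 and IER2 RNA and less FOS, JUNB and IER3 RNA than control cells. In limma on log2(RPKM + 1), fitted on 14526 genes and called at an adjusted p below 0.05, 6 of the 9 genes were called higher, where 33.0% of all genes were, and 3 were called lower, where 32.6% of all genes were. The groups did not overlap for 5 of the 9 on the higher side, where 31.0% of all genes had such a gap, and for 3 on the lower side, where 30.5% did. The median log2 fold change of the 9 genes was 0.39, against 0.0045 over all genes, and their median absolute change was 0.52, against 0.20. Without control replicate 1, the 9 genes kept their call and direction, and their log2 fold changes ran from -0.59 for JUNB to 1.19 for JUND. With library sizes that leave out the authors' scaling factors, the median difference in mean log2 RPKM, without a pseudocount and over genes above 0 in every sample, moved from 0.0077 to 0.11, and 65.1% of called genes were higher in place of 50.2%. Median centring moved it the other way, to -0.047, with 42.4% of called genes higher. The direction of the 9 genes was the same under both scalings and under median centring. In RNA from whole cultures, fewer cells that express a gene and less RNA per cell cannot be told apart.

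**Figure D1:**
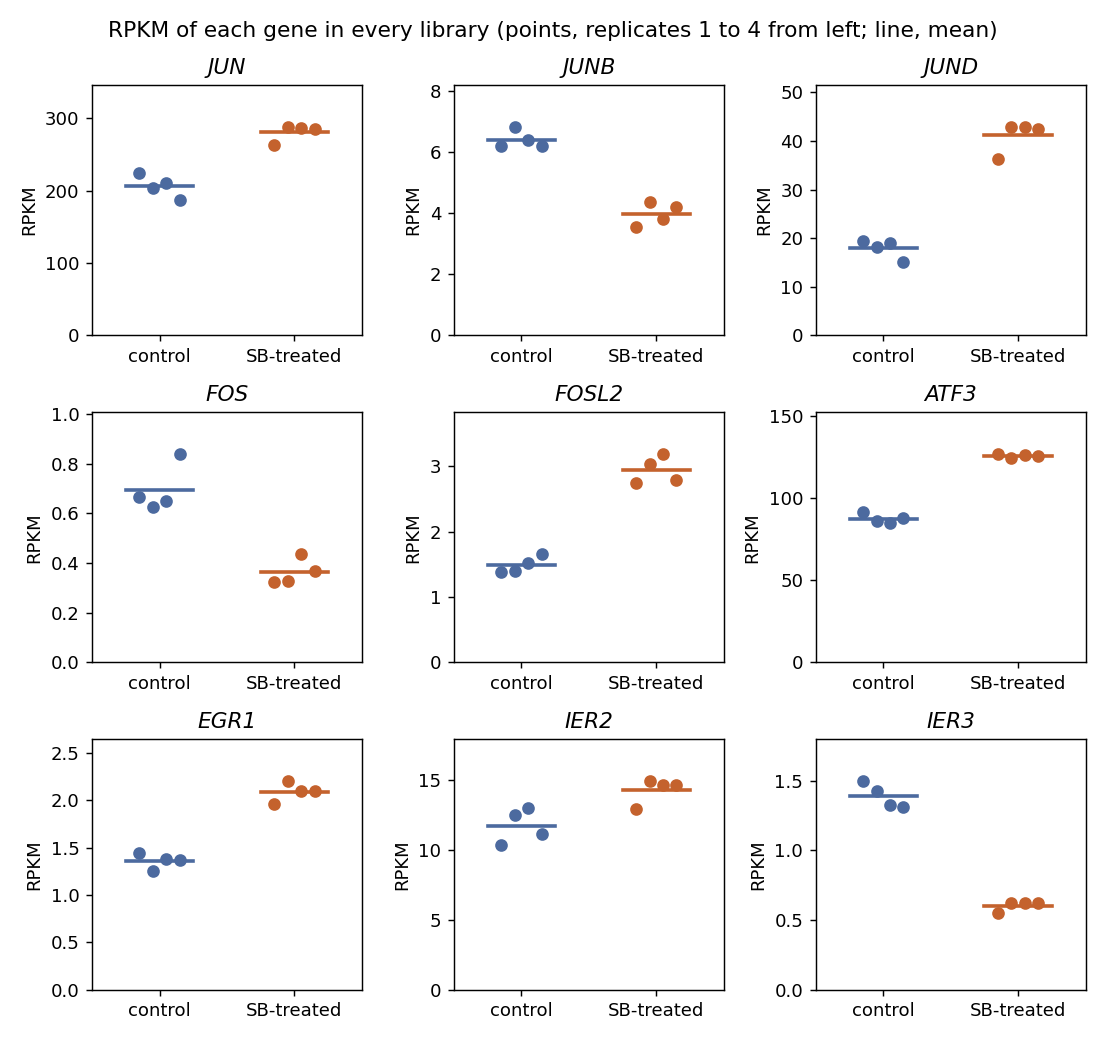
RPKM of the 9 genes with a row, with 1 point per library, replicates 1 to 4 from left to right within each group, and a line at the group mean; each vertical axis starts at 0. The control and SB-treated points of IER2 overlap, and those of the other 8 genes do not.

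The levels in control cells spanned a wide range. JUN was the most abundant of the 9, at rank 224 of 14526 genes, within the top 1.54%. ATF3 came next, within the top 4.79%, followed by JUND at 29.8%, IER2 at 40.9% and JUNB at 56.4% of the ranking. FOSL2, IER3, EGR1 and FOS followed between 81.0% and 89.4%. In control cells the ranges of FOSL2 and IER3 overlapped, as did those of IER3 and EGR1, and the other neighbours in this order were separated in every library. In SB-treated cells EGR1 came before IER3, and each neighbouring pair was separated. The places of IER3 and FOSL2 in this order rest on the gene lengths behind the values and changed with the canonical lengths, as given below. Mean JUN RPKM was 297 times that of FOS in control and 769 times in SB-treated cells.

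The JUN genes encode the partners on which AP-1 dimers depend. JUN, JUNB and JUND are each a gene of 1 exon in the canonical GENCODE transcript. The plus-strand gene JUNB lies on chromosome 19 of hg38 from 12791486 to 12793315. JUND, on the minus strand of the same chromosome, lies from 18279694 to 18281622, and JUN on the minus strand of chromosome 1 from 58776845 to 58784048.

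JUN, the most strongly activating member of its family, was at 224, 204, 210.1 and 187 RPKM in control replicates 1 to 4 and at 262, 288, 287 and 285 RPKM in SB-treated replicates 1 to 4. Every SB-treated library was above every control, and SB-treated replicate 1 lay below the other 3 of its group. The mean rose from 206 ± 15.1 to 280.5 ± 12.2 RPKM (SD, n = 4), 1.36-fold, and its log2 fold change was 0.44, with standard error 0.057 (adjusted p = 9.57e-05 in limma).

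JUND, which is often associated with slower growth and whose mRNA is more constant than that of the other JUN genes, changed most of the 9 genes on the log2(RPKM + 1) scale. Its level was 19.5, 18.2, 19.1 and 15.1 RPKM in control replicates 1 to 4 and 36.3, 42.9, 43.0 and 42.6 RPKM in SB-treated replicates 1 to 4. The groups were far apart, and SB-treated replicate 1 was again the lowest of its group. The mean rose from 18.0 ± 1.97 to 41.2 ± 3.28 RPKM (SD, n = 4), 2.29-fold, and its log2 fold change was 1.16, with standard error 0.083 (adjusted p = 2.88e-06 in limma).

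JUNB, which can oppose JUN at some target genes, moved the other way. It was at 6.20, 6.84, 6.40 and 6.20 RPKM in control replicates 1 to 4 and at 3.55, 4.36, 3.83 and 4.21 RPKM in SB-treated replicates 1 to 4. Every SB-treated library was below every control. The mean fell from 6.41 ± 0.303 to 3.99 ± 0.368 RPKM (SD, n = 4), to 0.622 of the control level, and its log2 fold change was -0.57, with standard error 0.056 (adjusted p = 1.80e-05 in limma). Exons of JUNB overlap those of HOOK2 on the opposite strand, the gene of a protein that links cargo to microtubules. The libraries came from a stranded kit, but whether reads were counted by strand is not given in the sources used here. HOOK2 went from 5.74 ± 0.670 to 7.95 ± 0.201 RPKM (SD, n = 4), opposite in direction to JUNB, with a log2 change of 0.41 (limma adjusted p = 0.000337).

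Within the JUN family, the share of each paralogue in the summed RPKM does not depend on library scaling. JUN made up 89.4 ± 0.358% of the sum in control and 86.1 ± 0.452% in SB-treated cells (SD, n = 4). JUND made up 7.78 ± 0.371% and 12.6 ± 0.420% (SD, n = 4), and JUNB 2.79 ± 0.239% and 1.22 ± 0.0735% (SD, n = 4). None of the 3 shares overlapped between the groups. The JUN family sum rose from 231 ± 16.9 to 326 ± 15.7 RPKM (SD, n = 4).

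The log2 ratio of JUN to JUND within each library went from 3.52 ± 0.075 in control to 2.77 ± 0.056 in SB-treated cells (SD, n = 4), so JUND gained 1.69-fold on JUN. The ratio of JUN to JUNB rose from 5.01 ± 0.13 to 6.14 ± 0.091 (SD, n = 4), a gain of 2.19-fold for JUN. JUNB against JUND went from -1.48 ± 0.17 to -3.37 ± 0.083 (SD, n = 4), a gain of 3.70-fold for JUND. Each ratio, like that of FOS to FOSL2, had an adjusted p of 0.0286 over 4 pairs (two-sided exact permutation test), the smallest that 4 against 4 allow, and the libraries of the groups were separated in each. The paralogues of this family thus did not change in step.

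The promoters of JUN and JUND, which rose, and of FOS and JUNB, which fell, are shown as examples of genes that changed in each direction. The sequences are from RefSeq (GRCh38.p14), whose promoter table matched 8 of the 10 genes, and cover the 250 bases before the start in that table, which for FOSL2 and ATF3 lies inside the GENCODE gene. The windows of FOS and JUN overlap the GENCODE gene by 2 bases and 1 base. They are chr1:58784048-58784297 (minus strand) for JUN, chr19:18281623-18281872 (minus strand) for JUND, chr14:75278578-75278827 (plus strand) for FOS and chr19:12791236-12791485 (plus strand) for JUNB. Capitals mark matches on either strand to 7 short motifs. The TRE was searched as TGACTCA and the CRE as TGACGTCA. The core of the CRE was searched as TGACG. TGACATCA and TTACCTCA are the proximal and distal AP-1-like elements known from the JUN promoter. The TATA box was searched as TATAAA. The last motif, a binding site of general promoter factors, is CCAAT.
JUN: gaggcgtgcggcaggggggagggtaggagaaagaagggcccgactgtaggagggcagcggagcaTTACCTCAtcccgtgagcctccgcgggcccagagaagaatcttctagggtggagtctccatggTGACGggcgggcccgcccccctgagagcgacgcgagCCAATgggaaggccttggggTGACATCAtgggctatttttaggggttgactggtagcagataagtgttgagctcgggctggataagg
JUND: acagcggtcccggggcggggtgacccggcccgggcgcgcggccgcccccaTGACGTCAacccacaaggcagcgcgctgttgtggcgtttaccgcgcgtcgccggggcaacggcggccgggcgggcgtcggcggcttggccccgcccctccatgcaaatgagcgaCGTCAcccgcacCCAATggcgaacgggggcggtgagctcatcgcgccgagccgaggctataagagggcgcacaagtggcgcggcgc
FOS: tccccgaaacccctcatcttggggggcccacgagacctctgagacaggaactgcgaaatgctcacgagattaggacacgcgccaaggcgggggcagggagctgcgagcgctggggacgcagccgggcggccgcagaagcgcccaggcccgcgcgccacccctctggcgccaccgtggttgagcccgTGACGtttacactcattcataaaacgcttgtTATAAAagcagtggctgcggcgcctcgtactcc
JUNB: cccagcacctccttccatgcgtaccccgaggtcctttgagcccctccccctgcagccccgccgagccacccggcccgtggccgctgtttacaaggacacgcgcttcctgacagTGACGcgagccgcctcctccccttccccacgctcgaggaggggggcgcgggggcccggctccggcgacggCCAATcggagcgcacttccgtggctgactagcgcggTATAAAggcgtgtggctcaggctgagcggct

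JUN held TGACATCA from 67 to 60 bases and TTACCTCA from 186 to 179 bases before its start, and a CRE core from 123 to 119. Of 35116 promoters of this length, 2.37% held TGACATCA and 0.644% TTACCTCA. JUND held a full CRE from 200 to 193 bases before its start, present in 1.65% of promoters, and a CRE core from 86 to 82. A CRE includes the core on both strands. FOS held a CRE core from 64 to 60 bases and a TATA box from 33 to 28 bases before its start, and JUNB a core from 137 to 133 and a TATA box from 31 to 26. The CRE core was in 21.2% and the TATA box in 10.7% of promoters. CCAAT, in 32.0% of promoters, stood from 87 to 83 bases before the start of JUN, 74 to 70 before JUND and 67 to 63 before JUNB. The TRE, in 4.20% of promoters, was in none of these windows. A CRE core was also found once before IER2 and 2 times before EGR1, and 2 times before the table start of FOSL2, so it was shared by genes that rose and genes that fell. ATF3 has 2 starts in the table, 1 of them with TGACATCA from 123 to 116 bases before it. These matches are descriptions of sequence and no measure of binding.

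The FOS family supplies the other side of the dimer. FOS, the classical early-induced member, lies on the plus strand of chromosome 14 from 75278826 to 75282230, and FOSL2 (Fra-2) on the plus strand of chromosome 2 from 28392448 to 28417317. Both have 4 exons in their canonical transcripts.

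FOS was the least abundant of the 9 genes. It was at 0.664, 0.624, 0.648 and 0.839 RPKM in control replicates 1 to 4 and at 0.326, 0.326, 0.438 and 0.369 RPKM in SB-treated replicates 1 to 4. These values rest on 50 to 74 reads per control library and 27 to 40 reads per SB-treated library, and the groups did not overlap. The mean fell from 0.694 ± 0.0982 to 0.365 ± 0.0529 RPKM (SD, n = 4), to 0.525 of the control level. The log2 fold change was -0.31, with standard error 0.048 (adjusted p = 0.000349 in limma), a scale on which the pseudocount of 1 shrinks changes of low genes. From the reads themselves, voom gave a log2 fold change of -0.92, with standard error 0.15 (adjusted p = 0.000261 in limma).

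FOSL2, whose protein lacks the strong activation domain of FOS, rose. It was at 1.38, 1.40, 1.53 and 1.66 RPKM in control replicates 1 to 4 and at 2.74, 3.04, 3.19 and 2.80 RPKM in SB-treated replicates 1 to 4. The lowest SB-treated value was well above the highest control. The mean went from 1.49 ± 0.127 to 2.94 ± 0.212 RPKM (SD, n = 4), 1.97-fold, and its log2 fold change was 0.66, with standard error 0.051 (adjusted p = 4.32e-06 in limma).

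FOSB, the remaining family member with a row, was at 0.429 ± 0.0849 RPKM in control and 0.367 ± 0.0438 RPKM in SB-treated cells (SD, n = 4), and its groups overlapped (limma adjusted p = 0.278). Without control replicate 1, FOSB was called lower (limma adjusted p = 0.0337). The FOS family sum of FOS, FOSL2 and FOSB was 2.61 ± 0.221 RPKM in control and 3.67 ± 0.282 RPKM in SB-treated cells (SD, n = 4), far below the JUN family sum in both. FOSL2 took 57.1 ± 1.53% of this sum in control and 80.1 ± 1.61% in SB-treated cells (SD, n = 4). The share of FOS was 26.5 ± 2.29% in control and 9.90 ± 0.884% in SB-treated cells (SD, n = 4). That of FOSB was 16.4 ± 3.25% in control and 10.0 ± 0.778% in SB-treated cells (SD, n = 4). None of these shares overlapped between the groups. Within a library, the log2 ratio of FOS to FOSL2 went from -1.11 ± 0.11 to -3.02 ± 0.16 (SD, n = 4), a 3.76-fold shift towards FOSL2. The shares depend on the gene lengths used. With canonical transcript lengths, a choice made after seeing the data, the share of FOSL2 was 43.8 ± 1.501% in control and 70.3 ± 2.11% in SB-treated cells (SD, n = 4), and that of FOS 35.1 ± 3.13% and 15.0 ± 1.196% (SD, n = 4). FOSB then had 21.2 ± 4.06% in control and 14.7 ± 1.01% in SB-treated cells (SD, n = 4). A pseudocount of 1 on both genes reduced the difference in the log2 ratio of FOS to FOSL2 from -1.91 to -0.97, with the same exact permutation result.

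**Figure D2:**
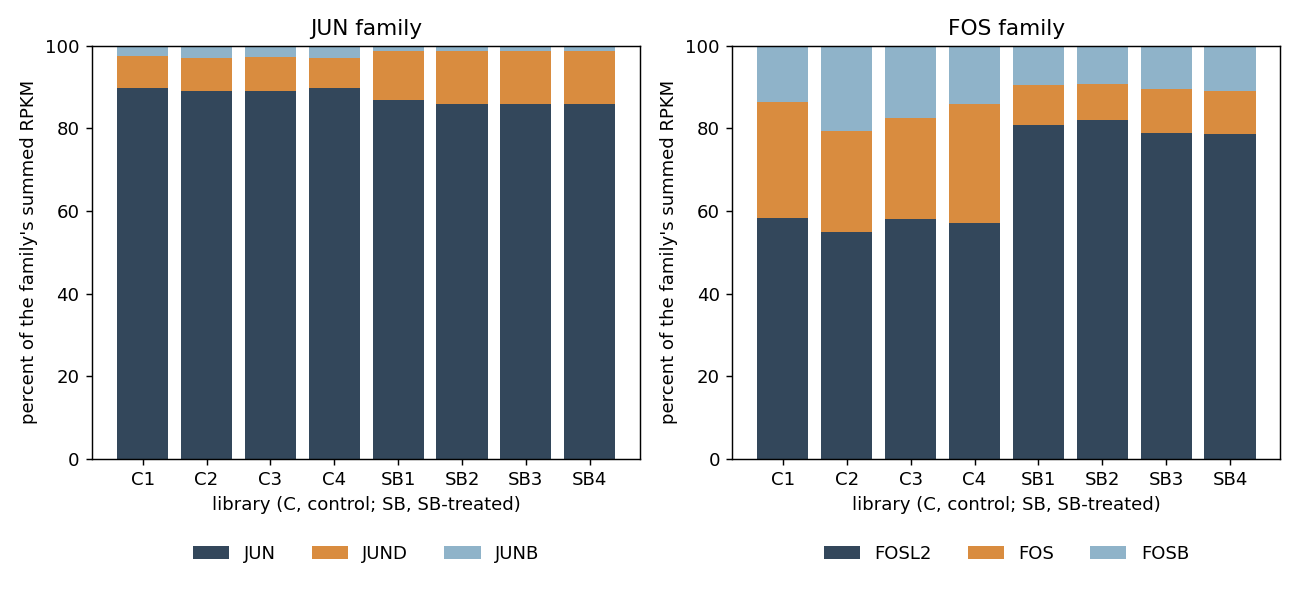
Percent of the summed RPKM of the JUN family (left) and the FOS family (right) taken by each paralogue, with 1 bar per library. JUND takes 12.0% to 12.9% in the SB-treated libraries against 7.26% to 8.11% in the controls, and FOSL2 takes 78.7% to 82.0% against 54.9% to 58.3%.

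ATF3 encodes a stress-induced leucine-zipper protein that pairs with JUN proteins and often represses transcription. It lies on the plus strand of chromosome 1 from 212565334 to 212620777, with 4 exons in the canonical transcript. Its level was 92.0, 86.1, 85.1 and 87.8 RPKM in control replicates 1 to 4 and 127, 125, 126 and 126 RPKM in SB-treated replicates 1 to 4. The SB-treated libraries lay within a narrow band above every control. The mean rose from 87.7 ± 3.05 to 126 ± 1.05 RPKM (SD, n = 4), 1.44-fold, and its log2 fold change was 0.52, with standard error 0.035 (adjusted p = 2.12e-06 in limma).

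EGR1 encodes a zinc-finger factor that binds GC-rich promoters and is induced by growth factors through serum response elements. It has 2 exons and lies on the plus strand of chromosome 5 from 138465479 to 138469303. It was at 1.45, 1.26, 1.38 and 1.37 RPKM in control replicates 1 to 4 and at 1.96, 2.20, 2.103 and 2.104 RPKM in SB-treated replicates 1 to 4. The groups were separated by more than the spread within either. The mean rose from 1.36 ± 0.0795 to 2.09 ± 0.102 RPKM (SD, n = 4), 1.53-fold, and its log2 fold change was 0.39, with standard error 0.039 (adjusted p = 2.28e-05 in limma). On the scale of reads, voom gave 0.62 (standard error 0.073).

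IER2 encodes a small nuclear protein of the immediate early response and lies on the plus strand of chromosome 19 from 13150411 to 13154911, where exons of 2 long noncoding genes overlap it on the opposite strand. It was at 10.4, 12.5, 13.0 and 11.2 RPKM in control replicates 1 to 4 and at 13.0, 15.0, 14.7 and 14.6 RPKM in SB-treated replicates 1 to 4. The groups overlapped, since SB-treated replicate 1, at 12.97 RPKM, was just below control replicate 3, at 12.996 RPKM. The mean rose from 11.8 ± 1.21 to 14.3 ± 0.906 RPKM (SD, n = 4), 1.22-fold, and its log2 fold change was 0.27, with standard error 0.071 (adjusted p = 0.00795 in limma). With these values IER2 had the smallest change of the 9 genes and the least separation between groups. FOS changed less, in absolute size, without scaling factors (-0.28 against 0.36 for IER2) and with GC and length correction (-0.25 against 0.26).

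IER3 encodes a membrane-linked protein that limits or promotes cell death depending on the signal. The gene has 2 exons and lies on the minus strand of chromosome 6 from 30743199 to 30744548, where exons of the noncoding genes IER3-AS1 and HCG20 overlap it on the opposite strand. Its level was 1.497, 1.42, 1.33 and 1.31 RPKM in control replicates 1 to 4 and 0.549, 0.618, 0.619 and 0.624 RPKM in SB-treated replicates 1 to 4. Every SB-treated library was far below every control, on 353 to 474 reads per control library and 157 to 216 per SB-treated library. The mean fell from 1.39 ± 0.0866 to 0.603 ± 0.0359 RPKM (SD, n = 4), to 0.434 of the control level. The log2 fold change was -0.58, with standard error 0.038 (adjusted p = 1.75e-06 in limma), and voom on the reads gave -1.20 (standard error 0.074), about the size of the rise of JUND on that scale.

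**Figure D3:**
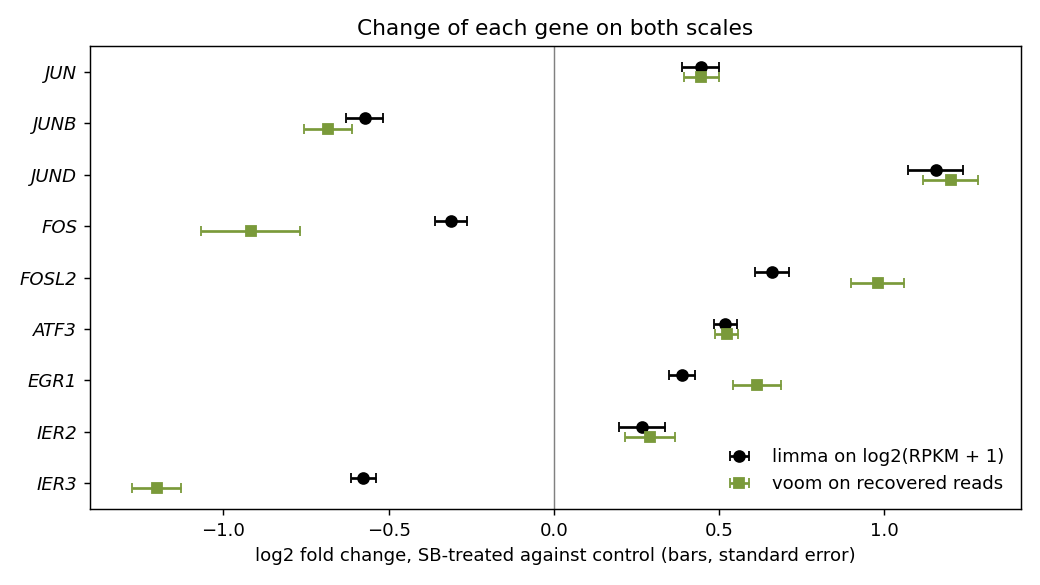
Log2 fold change of each gene, SB-treated against control, from limma on log2(RPKM + 1) (circles) and from voom on recovered reads (squares); bars are standard errors and 0 is no change. Both scales give each gene the same sign, and FOS moves from -0.31 to -0.92 and IER3 from -0.58 to -1.20 where the pseudocount no longer weighs on low values.

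The RPKM of IER3 cannot be set beside that of the other genes per length. The length behind the deposited values, recovered with the reads, was 7440 bases for IER3, against 1237 bases in the canonical GENCODE transcript, a ratio of 6.01. For JUN, JUNB, JUND, FOS, EGR1 and IER2 the same ratio lay between 0.970 and 1.03, for ATF3 it was 1.31 and for FOSL2 0.595. IER3 lies in the major histocompatibility complex (MHC), a region for which hg38 carries alternate copies beside the main chromosome. Of 81 protein-coding genes between 29000000 and 33000000 on chromosome 6, 75 had a counted length over 2 times their GENCODE exon length, against 59 of 13014 elsewhere. The median ratio was 4.75 inside this span and 0.704 outside it. Whether reads of IER3 were lost or shared between such copies was not tested, so its absolute level is uncertain. The RPKM fold change uses one length in all libraries and does not depend on it. The log2 change with a pseudocount of 1 does, and went from -0.58 to -1.02 on the canonical length.

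With the canonical transcript length in place of the counted one, a choice made after seeing the data, IER3 stood at 8.36 ± 0.521 in control and 3.63 ± 0.216 in SB-treated cells (SD, n = 4) on the RPKM scale. It then came between IER2 and JUNB in control, and in SB-treated cells it came before EGR1, with a range that overlapped that of JUNB. FOSL2 fell to 0.887 ± 0.0754 (SD, n = 4) in control, where its range overlapped that of FOS, but not in SB-treated cells. The order of JUN, ATF3, JUND and IER2 was the same with both lengths.

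**Figure D4:**
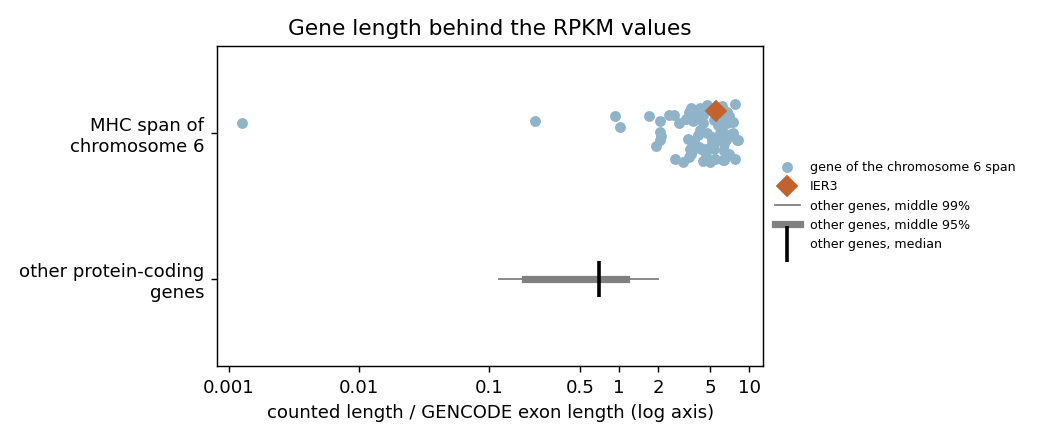
Ratio of the gene length behind the deposited RPKM to the GENCODE exon length, on a log axis, for each of 81 genes in the MHC span of chromosome 6 (points) and for 13014 other protein-coding genes (bars span the middle 95% and 99%, the tick is the median). IER3, the diamond at 5.51, lies among its neighbours, whose median is 4.75, and outside the range of most other genes.

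The profile nearest to that of JUND was sought over the 8 samples among 12538 other genes with a mean of at least 1 RPKM, as the root mean square difference of log2(RPKM + 1) from the control mean. MIB2, a ubiquitin ligase of Notch signalling, was nearest, with a difference of 0.097, and went from 3.10 ± 0.199 to 7.69 ± 0.629 RPKM (SD, n = 4). HSPA8, the constitutive HSP70 chaperone, followed with 0.12 and went from 113 ± 8.63 to 251 ± 5.99 RPKM (SD, n = 4). NOXO1, an organizer of a superoxide-producing NADPH oxidase, also had 0.12 and went from 0.848 ± 0.133 to 3.11 ± 0.0847 RPKM (SD, n = 4). Its likeness to JUND holds only with the pseudocount of 1, since voom gave NOXO1 a log2 fold change of 1.89, above that of JUND on the same scale. NOXO1 also reached the mean of 1 RPKM only through the SB-treated cells, as its control mean lay below it.

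Genes around AP-1 were taken from 6 lists. Of 11 other leucine-zipper partners with a row, out of 12, 4 (36.4%) were higher and 2 (18.2%) lower by limma, against 33.0% and 32.6% of all genes. Their median log2 fold change was 0.0044, and -0.044 without control replicate 1. MAFG, a small MAF protein without an activation domain, rose from 7.27 ± 0.653 to 14.6 ± 0.125 RPKM (SD, n = 4). The gene of ATF7, a CRE-binding relative of ATF2 and target of JNK and p38 kinases, rose from 6.50 ± 0.363 to 8.25 ± 0.219 RPKM (SD, n = 4), and GC and length correction cut its log2 fold change from 0.30 to 0.17. The large MAF factor MAF fell from 10.4 ± 1.01 to 5.31 ± 0.171 RPKM (SD, n = 4). BATF2, a JUN partner induced by interferon, fell from 1.18 ± 0.0914 to 0.703 ± 0.0791 RPKM (SD, n = 4).

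Among other immediate early genes, 31 of 35 had a row, and 7 (22.6%) were higher and 13 (41.9%) lower, against 33.0% and 32.6% of all genes. The median log2 fold change was 0.0063, and -0.020 without control replicate 1. KLF11 and KLF10 encode related zinc-finger repressors induced by TGF-beta, and they moved in opposite directions. KLF11 rose from 8.64 ± 0.347 to 13.2 ± 0.195 RPKM (SD, n = 4), and KLF10 fell from 24.8 ± 1.72 to 12.4 ± 0.300 RPKM (SD, n = 4). PPP1R15A (GADD34), which directs a phosphatase to the initiation factor eIF2 alpha, rose from 37.5 ± 1.23 to 50.7 ± 0.355 RPKM (SD, n = 4). MYC, a driver of growth and ribosome production, fell from 131 ± 4.80 to 93.0 ± 1.29 RPKM (SD, n = 4). For these 4 genes the limma adjusted p lay between 6.24e-07 and 5.46e-06.

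The RAS, RAF and mitogen-activated protein kinase genes carry the signals that switch immediate early genes on. Each of 23 had a row, and 9 (39.1%) were higher and 7 (30.4%) lower, near the 33.0% and 32.6% of all genes. The median log2 fold change was -0.06. MAP2K6, the kinase that activates p38, fell most, from 8.52 ± 0.550 to 2.65 ± 0.172 RPKM (SD, n = 4), to 0.311 of the control level (log2 fold change -1.38, limma adjusted p = 1.09e-07). Its p38 targets differed in direction: MAPK12 fell from 44.6 ± 5.04 to 35.6 ± 0.601 RPKM (SD, n = 4), and MAPK11 rose from 1.99 ± 0.111 to 2.70 ± 0.193 RPKM (SD, n = 4). MAPK8, which encodes the JUN kinase JNK1, rose from 9.38 ± 0.483 to 11.6 ± 0.397 RPKM (SD, n = 4).

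Promoter factors are the regulators that act at serum response elements and CREs of early genes, with their kinases, coactivators and corepressors. Of 18 with a row, out of 18, 9 (50%) were higher and 2 (11.1%) lower, against 33.0% and 32.6% of all genes, and the median log2 fold change was 0.12. MKL2, a coactivator of serum response factor controlled by actin, rose from 4.92 ± 0.144 to 7.28 ± 0.181 RPKM (SD, n = 4). RPS6KA1, the ERK-activated kinase RSK1, rose from 13.3 ± 1.47 to 18.7 ± 0.759 RPKM (SD, n = 4). NAB2, a corepressor of EGR1 that is itself an EGR1 target, fell from 9.52 ± 0.486 to 5.50 ± 0.289 RPKM (SD, n = 4). CREM, a CRE-binding modulator, fell from 4.67 ± 0.546 to 3.74 ± 0.183 RPKM (SD, n = 4).

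Turnover factors either destabilize or protect mRNAs with AU-rich elements or degrade JUN proteins. Of 11 with a row, out of 11, 2 (18.2%) were higher and 5 (45.5%) lower, against 33.0% and 32.6% of all genes, with a median log2 fold change of -0.08, and -0.049 without control replicate 1. HNRNPD (AUF1) fell from 245 ± 25.4 to 173 ± 3.51 RPKM (SD, n = 4), and KHSRP, which recruits the decay machinery, from 198 ± 4.38 to 147 ± 3.50 RPKM (SD, n = 4). ZFP36L2, a zinc-finger decay factor, rose from 15.6 ± 0.495 to 18.4 ± 0.470 RPKM (SD, n = 4). ZFP36, ZFP36L1 and ZFP36L2 belong to the immediate early list too, as SRF does with the promoter factors.

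Of 25 genes known as AP-1 targets, 16 had a row, 5 were higher and 5 lower, and the median log2 fold change was -0.04, and -0.063 without control replicate 1. The collagenase genes MMP1 and MMP13 were among those with no row. VIM, the gene of the intermediate filament protein vimentin, rose from 399 ± 16.3 to 569 ± 9.66 RPKM (SD, n = 4). IL11, a cytokine gene, rose from 0.723 ± 0.0340 to 1.30 ± 0.114 RPKM (SD, n = 4). HMGA1, which encodes an architectural chromatin protein, fell from 178 ± 11.4 to 120.2 ± 3.76 RPKM (SD, n = 4). CCND1, the cyclin D1 gene, fell from 26.8 ± 0.628 to 18.8 ± 0.596 RPKM (SD, n = 4). The list thus moved in both directions, at shares of 31.3% higher and 31.3% lower, near the 33.0% and 32.6% of all genes. Without control replicate 1, 5 of the 16 were higher and 8 lower, where 37.6% of all genes were higher and 37.9% lower.

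**Figure D5:**
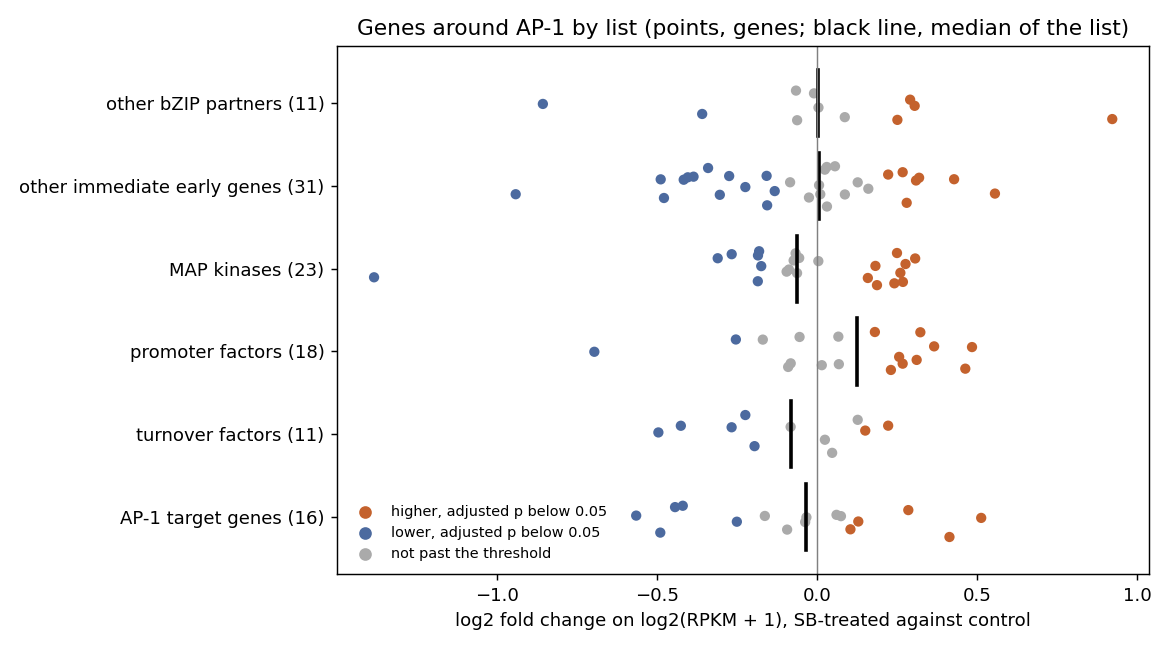
Log2 fold change of each gene of the 6 lists on log2(RPKM + 1), SB-treated against control, coloured by call at a limma adjusted p below 0.05, with the median of each list as a black line and the number of genes with a row in brackets; points are spread vertically for display. MAP2K6 at -1.38 is the lowest point and MAFG at 0.92 the highest, and the medians lie between -0.08 and 0.12.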

How the data were processed

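RNA-seq values of 4 control and 4 SB-treated samples were used. The authors mapped stranded total RNA reads to hg38 with TopHat2 2.1.0, counted them with featureCounts 1.5.0, removed genes without 1 CPM in 2 samples or more, scaled libraries by TMM in edgeR 3.16.5 and deposited RPKM values per gene and library. Their columns of log2 fold change, mean log2 CPM, p-value and FDR were not used, and 0 columns of per-sample values were left aside. The design allowed for counts or RPKM, and the RPKM test applied.

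Whole reads, gene lengths and library sizes were recovered from the values for 100% of genes (within 0.02 of a read), up to a factor shared by all 8 counts of a gene. The library size was set by 139 genes with a counted length equal to their RefSeq span. The authors' scaling factors came out between 0.957 and 0.969 in control and between 1.03 and 1.04 in SB-treated samples. limma 3.58.1 in R 4.3.3 was fitted on log2(RPKM + 1) without further filter, with Benjamini-Hochberg adjustment over 14526 genes. Ratios of paralogues were tested by an exact permutation test with adjustment over 4 pairs, since pairs with FOSL1 could not be formed. Fits, read recovery and the permutation test were tested on simulated data. Positions, lengths and GC content (97.0% of genes) came from GENCODE release 44, and other steps used Python 3.11.15.

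Members and lists were chosen with earlier results of these data known. Besides the 10 genes, the text names from each list up to 2 rises and up to 2 falls. These are the largest among genes with an adjusted p below 0.05 and no overlap. It also names the 3 profiles nearest to JUND, the member most changed on log2(RPKM + 1). FOSB, HOOK2, the hepatocyte genes and genes without a row were named outside this rule, after their values were seen. Of the hepatocyte genes with a row, 1 is not reported here. Alternatives were a pseudocount of 0.1, a filter of 1 RPKM in 4 samples, library sizes without scaling factors, median centring, voom, the replicate number as a block, GC and length correction with that block, and leaving out each sample. GC correction without the block, voom with it, levels and family shares on the canonical length, and shares, lists and order without control replicate 1 were added after seeing the data. The replicates are called biological by the study, without further detail, so p-values measure the spread between these samples. ChIP-seq data were not analysed here.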

Additional observations from a re-analysis of the deposited data

Results flagged for a closer look

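In each group of 4, the gap of the lowest or highest sample to its neighbour was divided by the group's range, on log2(RPKM + 1), for the 9 genes and the 26 other genes of the naming rule. Of 70 groups, 7 had a sample far from the others, where chance gives about 1 in 20, or 3.5. Far values were more common than that over all genes, with 14.6% of the 14526 genes in control replicate 1 alone. The 7 are therefore not read as an excess for these genes. In 5 of the 7 it was SB-treated replicate 1, as the lowest of its group. The gap was 0.873 of the range for JUN, 0.947 for JUND, 0.853 for IER2, 0.926 for IER3 and 0.880 for MIB2, which was named for its likeness to JUND and so is no separate observation. For the genes that rose, this library lies on the side of the controls. Without SB-treated replicate 1, the log2 fold change was 0.48 for JUN, 1.21 for JUND, 0.31 for IER2 and -0.56 for IER3. Over all 14526 genes, SB-treated replicate 1 was such a far value for 2.30% of genes, against 0.716% to 1.28% for the other SB-treated libraries. HSPA8 was high in control replicate 1, with a gap of 0.967, a library that was a far value for 14.6% of all genes. KHSRP was high in control replicate 3, with a gap of 0.884. GC content accounted for 28.9% of the variance of the difference of SB-treated replicate 1 from the mean of the other SB-treated libraries. For those libraries it was 1.91% to 19.7%, where the mean they were set against includes SB-treated replicate 1. The part of library quality or GC content in these gaps was not tested.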

How the results depend on the processing

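Each of the 9 genes kept its direction and stayed below an adjusted p of 0.05 in the 152 alternative fits run on them. The 26 other genes of the naming rule did so in 442. Those 26 were named for a call in the same samples or for likeness to JUND, so their result is no sign of stability. Of these 26, the log2 fold change moved by over 1.5 times for BATF2 (-0.36 to -0.74), IL11 (0.41 to 0.84) and NOXO1 (1.16 to 1.89) with voom, and less so with a pseudocount of 0.1, for ATF7 (0.30 to 0.17) with GC and length correction and for CREM (-0.25 to -0.17) without scaling factors. FOS could not be fitted with the filter of 1 RPKM in 4 samples, which it fails, so 2 genes were then called lower in place of 3. Over the settings other than leaving out a sample, the log2 fold change ranged from 0.39 to 0.55 for JUN, from 1.09 to 1.26 for JUND, from -0.68 to -0.48 for JUNB, from -0.92 to -0.25 for FOS, from 0.60 to 0.98 for FOSL2, from 0.46 to 0.62 for ATF3, from 0.35 to 0.62 for EGR1, from 0.22 to 0.36 for IER2 and from -1.20 to -0.53 for IER3. IER2 had the weakest call, with a limma adjusted p of up to 0.022 in these settings and of up to 0.0259 with a sample left out.

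With the replicate block, 6 genes were called higher and 3 lower, as without it. Same-numbered control and SB-treated samples had correlations of 0.38, 0.33, 0.17 and -0.16 in their deviations from the group means, so the numbers were not taken to pair the samples. Control replicates 1 and 2 correlated best with the SB-treated sample of their own number, and control replicates 3 and 4 did not. Over all genes the block moved the calls from 4787 to 4885 higher and from 4740 to 4894 lower.

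The 4 ratios of paralogues kept direction and call when a sample was left out, where the smallest exact permutation p is 0.0286. The groups were already separated in each ratio, so leaving out a sample could not change this, and it is no sign of stability. Depth limits FOS most, at 27 to 74 reads per library.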
